A study of Homo sapiens with 6 samples.

Results

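The zinc finger genes of chromosome 19 were examined in THP-1 cells, an established line from a human monocytic leukaemia. They were taken as the protein-coding genes of chromosome 19 whose symbol is ZNF followed by digits and whose mean over 6 libraries was 1 TPM or more, TPM being a level per transcript length that sums to the same total in every library. Of 240 such genes on the chromosome, 196 (81.7%) passed, out of 78652 genes in the deposited tables. They were chosen by their mean TPM over the same libraries, so their levels are given as a description.

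THP-1 cells in RPMI medium with serum carried either a stably transduced empty vector (EV, 3 libraries) or a construct for overexpression of PTX4, which encodes pentraxin 4 (PTX4-OE, 3 libraries). The labels do not give the promoter of the construct, or whether the lines were pools or clones. Every library has the same batch label, 1, and each construct has biological replicates numbered 1, 2 and 3. What libraries of the same number share is not stated, and where their source is not stated the p-values measure only the spread between these libraries. In RNA from whole cultures, fewer cells with a transcript and less of it per cell cannot be told apart.

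Most of these genes encode proteins with a row of C2H2 zinc fingers, small folds that each hold a zinc ion and read a few bases of DNA. Many also carry a KRAB domain, which recruits the scaffold protein TRIM28 and, through it, the histone methyltransferase SETDB1 and HP1 proteins, so that the bound DNA is packed into silent chromatin. Their best known targets are transposable elements, and the genes themselves arose by repeated tandem duplication, which left them in clusters of close relatives along chromosome 19.

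The finger repeat can be read in the genes themselves. Neighbouring fingers are joined by a conserved linker, whose coding form was searched for in the longest GENCODE coding sequence of each gene as successive codons beginning AC, GG, GA, AA and CC. These encode threonine, glycine, aspartate or glutamate, asparagine or lysine, and proline. It occurred 3 or more times in 149 of the 196 genes (76.0%). Among genes with a mean of 1 TPM or more, the share was 47.2% of 195 ZNF genes of other chromosomes. It was 1.54% of the other protein-coding genes of chromosome 19 at that limit. Of the 44 chromosome 19 ZNF genes below 1 TPM, 84.1% had 3 or more, with a median of 6 linkers and 1 gene without a match. Among the 196 the median was 5.5 linkers, ZNF850 had the most, with 25, and 31 genes had no match to these codons. From one linker to the next, 66.1% of 975 spacings measured exactly 84 bases, the length of 1 finger with its linker. One such unit is shown, from linker to linker, for the gene of highest level (ZNF146), the gene with most linkers (ZNF850), and the genes of largest rise (ZNF763) and fall (ZNF878) between replicate numbers 3 and 1. Coordinates are GRCh38, bases run 5′ to 3′ along the coding strand, and capitals mark the linker motif.
ZNF146 (chr19:36236723-36236820, plus strand): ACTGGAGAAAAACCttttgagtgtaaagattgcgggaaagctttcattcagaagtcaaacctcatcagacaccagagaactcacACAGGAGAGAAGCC
ZNF850 (chr19:36750117-36750214, minus strand): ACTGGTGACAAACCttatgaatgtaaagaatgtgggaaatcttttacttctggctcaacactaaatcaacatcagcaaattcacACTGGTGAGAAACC
ZNF763 (chr19:11978591-11978688, plus strand): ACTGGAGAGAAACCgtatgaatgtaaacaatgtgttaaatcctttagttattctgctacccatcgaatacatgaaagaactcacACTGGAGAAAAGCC
ZNF878 (chr19:12044388-12044485, minus strand): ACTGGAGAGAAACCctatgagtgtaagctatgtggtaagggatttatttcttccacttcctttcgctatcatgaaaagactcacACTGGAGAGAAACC
Between the capitals, each unit holds the pair of cysteine codons (tgt or tgc) and the pair of histidine codons (cat or cac) of a finger. Some other codons encode the same amino acid in every unit, such as the lysine (aaa or aag) after the first cysteine. The rest differ between genes.

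**Figure D1:**
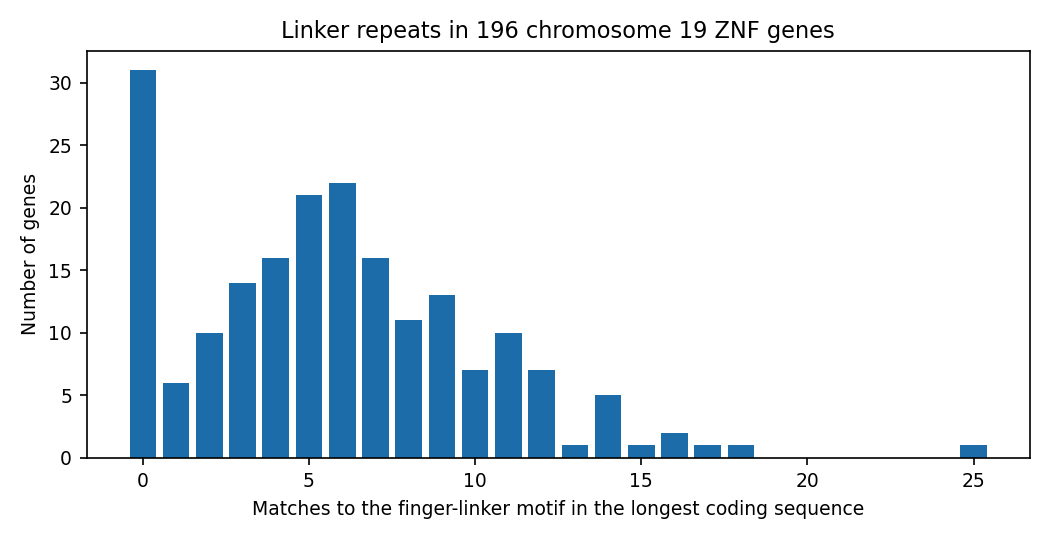
Number of genes (vertical axis) by number of matches to the finger-linker motif in the longest coding sequence (horizontal axis), for the 196 genes. The bar at 0 holds 31 genes and the single gene at 25 is ZNF850.

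Promoters of these genes differed from promoters at large in how often they held some short motifs, and for part of these motifs other ZNF genes or other genes of chromosome 19 had a like share. RefSeq promoters were found for 175 of the 196 genes, and the 250 bases before the start were compared with those of 15342 promoters of protein-coding genes, whether or not these were expressed here. Closer sets were 162 promoters of ZNF genes of other chromosomes and 597 of other protein-coding genes of chromosome 19. An ETS motif (CCGGAAG) was in 32.6% of the 175, against 12% of all promoters, 33.3% of the other ZNF promoters and 15.7% of the other chromosome 19 promoters. A GC box (GGGCGG) was in 68.0%, against 56.7% of all, but also in 63.0% of the other ZNF promoters and 73.5% of the other chromosome 19 promoters. A CCAAT box (CCAAT) was in 51.4%, against 34.8%, 43.8% and 40.0% in the same order. A TATA box (TATAAA) was in 2.29%, against 9.22%, 4.32% and 6.2%. The AP-1 motif (TGANTCA) was in 6.29%, against 5.02%, 3.7% and 2.51%, and the E-box (CACGTG) in 3.43%, against 7.85%, 5.56% and 9.72%. Both strands were searched, and a match is a match of letters only.

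Windows of 250 bases are printed for 5 of the genes that moved most between replicate numbers 3 and 1: ZNF880, ZNF382 and ZNF814, which were higher, and ZNF878 and ZNF576, which were lower. The sequences are RefSeq's on GRCh38.p14, on the gene's strand, with motif matches in capitals. RefSeq and GENCODE starts can differ. The ZNF382 window lies wholly inside that gene as GENCODE places it (from 36604817), and partly within ZNF529 on the other strand (to 36605276).
ZNF880 (chr19:52369673-52369922, plus strand): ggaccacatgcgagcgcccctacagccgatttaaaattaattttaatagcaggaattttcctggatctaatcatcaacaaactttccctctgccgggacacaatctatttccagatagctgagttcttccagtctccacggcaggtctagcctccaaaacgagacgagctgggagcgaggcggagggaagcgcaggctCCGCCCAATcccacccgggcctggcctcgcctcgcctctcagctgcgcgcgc
ZNF382 (chr19:36605063-36605312, plus strand): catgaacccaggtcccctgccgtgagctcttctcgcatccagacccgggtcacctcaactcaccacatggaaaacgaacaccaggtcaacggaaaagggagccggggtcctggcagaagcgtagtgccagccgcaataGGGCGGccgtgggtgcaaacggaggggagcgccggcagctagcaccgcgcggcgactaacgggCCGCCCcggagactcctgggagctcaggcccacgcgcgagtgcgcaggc
ZNF814 (chr19:57889038-57889287, minus strand): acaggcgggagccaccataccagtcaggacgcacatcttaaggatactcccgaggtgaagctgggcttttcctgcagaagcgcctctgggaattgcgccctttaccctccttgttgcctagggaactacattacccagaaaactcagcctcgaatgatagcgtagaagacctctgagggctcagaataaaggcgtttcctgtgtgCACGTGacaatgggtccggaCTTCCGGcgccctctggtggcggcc
ZNF878 (chr19:12052962-12053211, minus strand): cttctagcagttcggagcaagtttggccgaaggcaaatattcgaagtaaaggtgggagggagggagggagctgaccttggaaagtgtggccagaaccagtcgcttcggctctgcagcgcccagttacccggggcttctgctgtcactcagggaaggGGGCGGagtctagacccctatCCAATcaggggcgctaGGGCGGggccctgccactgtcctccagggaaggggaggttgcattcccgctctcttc
ZNF576 (chr19:43596142-43596391, plus strand): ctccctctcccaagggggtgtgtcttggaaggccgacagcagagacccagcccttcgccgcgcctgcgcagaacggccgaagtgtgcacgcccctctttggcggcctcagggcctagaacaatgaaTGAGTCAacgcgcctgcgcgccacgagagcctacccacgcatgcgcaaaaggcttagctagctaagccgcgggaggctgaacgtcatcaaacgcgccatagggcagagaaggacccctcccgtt
The ZNF880 window holds a GC box that shares bases with a CCAAT box, and the ZNF382 window holds GC boxes on both strands. In the ZNF814 window an E-box is followed by an ETS motif on the other strand. The ZNF878 window holds GC boxes and a CCAAT box, and the ZNF576 window an AP-1 motif.

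Before the comparisons, the libraries were checked. Their totals ran from 29670641 to 37718207 expected counts, and PTX4 was at 0 to 0.13 TPM in EV and 444 to 702 TPM in PTX4-OE. Of 13 markers of THP-1 cells, 11 were at 1 TPM or more in every library. The exceptions were CD14, at 0.84 to 1.83 TPM, and MEIS1, at 0.86 to 1.59 TPM. All 3 T cell markers were listed at 0, and the summed levels of B cell, epithelial, fibroblast, erythroid and endothelial markers were at most 1.29, 2.05, 0.67, 0.17 and 0.04 TPM. The 196 genes took 0.318% to 0.379% of the counts of a library.

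The zinc finger genes of chromosome 19 were numerous but low. Their median of mean TPM was 5.38, against 8.36 for the 195 ZNF genes of other chromosomes, 21.3 for the 722 other protein-coding genes of chromosome 19 and 16.0 for all 11581 protein-coding genes at 1 TPM or more. A mean of 10 TPM or more was reached by 46 of the 196 genes (23.5%), against 44.1%, 67.9% and 63.6% of those sets. In the deposited FPKM the median of the 196 was 4.19.

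ZNF146, whose protein consists of fingers without a KRAB domain (ENSG00000167635.12, chr19:36214602-36238771, plus strand, GRCh38), had the highest level, 51.0 ± 1.81 TPM (SD, n = 6). It was at 54.0, 50.6 and 49.6 TPM in EV replicates 1, 2 and 3 and at 52.2, 49.2 and 50.3 TPM in PTX4-OE replicates 1, 2 and 3, so all 6 libraries lay close together. ZNF787 followed at 37.7 ± 2.75, ZNF581 at 35.1 ± 9.99 and ZNF428 at 32.2 ± 4.55 TPM, and the SDs of these neighbours in the order overlap. ZNF506 was at 27.3 ± 1.01 TPM. ZNF93, a KRAB protein known to silence LINE-1 elements, was at 26.5 ± 2.29 TPM. ZNF121 had 26.2 ± 3.65, ZNF317 had 25.9 ± 2.16 and ZNF85 had 24.7 ± 1.93 TPM. ZNF274, which carries SCAN and KRAB domains and is known to bind zinc finger genes themselves, was at 24.2 ± 1.65 TPM. From ZNF506 to ZNF274 each mean differed from the next by less than the larger of the SDs. These 10 were the only genes of the 196 with a mean of 20 TPM or more, and they held 20.9% of the summed level.

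At the lower limit, ZNF554 (1.39 TPM), ZNF709 (1.38), ZNF547 (1.30), ZNF382 (1.26) and ZNF837 (1.22) were just inside. ZNF404 (0.982), ZNF714 (0.962), ZNF552 (0.933), ZNF582 (0.868) and ZNF577 (0.84 TPM) were just outside. Of the 44 genes outside, 21 were between 0.1 and 1 TPM, 13 were above 0 and below 0.1 TPM, and 10 had no count in any library.

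**Figure D2:**
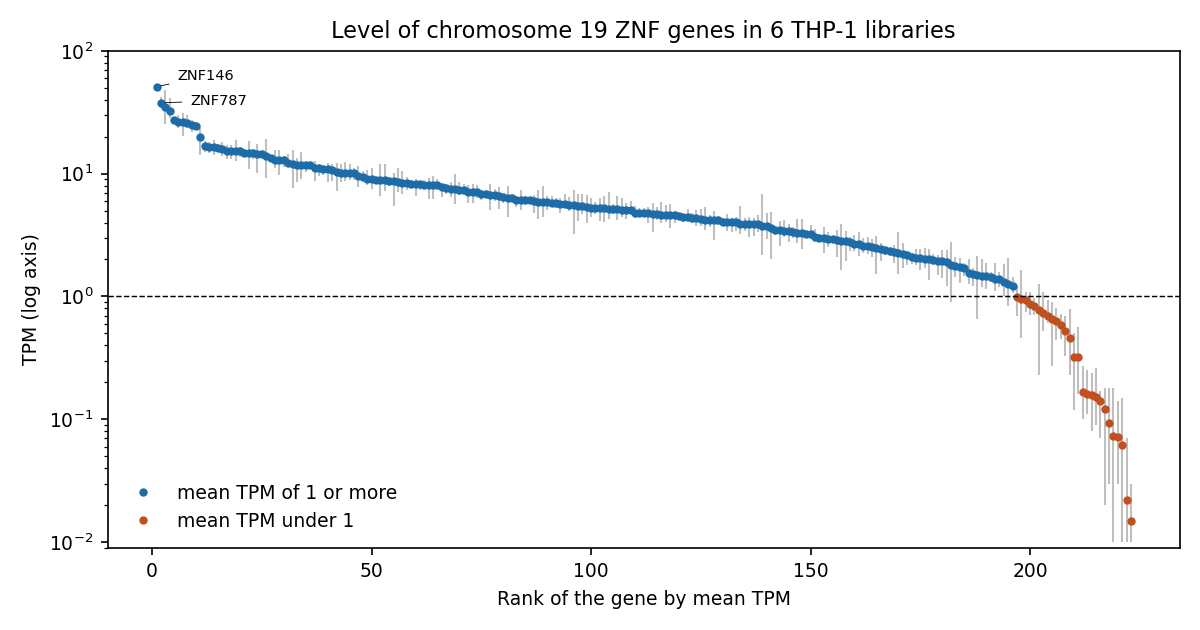
Mean TPM over 6 libraries (points, log axis) of chromosome 19 ZNF genes ordered by level, with lines from the lowest to the highest library; genes with a mean under 0.01 TPM are not drawn. The 196 genes at 1 TPM or more run from 1.22 to 51.0 TPM, and 46 of them reach 10 TPM.

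Levels varied little between libraries for most of the genes. The median ratio of highest to lowest library was 1.37, the same as the 1.37 of all protein-coding genes at 1 TPM or more. The ratio was 2 or more for 11 genes. Summed over the 196 genes, the level was 1432, 1472 and 1546 TPM in EV replicates 1, 2 and 3 and 1405, 1489 and 1573 TPM in PTX4-OE replicates 1, 2 and 3. Within each construct the library of number 1 was lowest and that of number 3 highest, and the libraries of the constructs overlapped.

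The constructs were compared first, to see which transcripts differ in cells that overexpress PTX4. None of the 196 zinc finger genes passed the test, whether libraries were compared as groups or as pairs of the same number. Without pairs 0 genes were called, where the background over 17625 genes was 1 gene, or 0.00567%, and that gene was PTX4 (edgeR's quasi-likelihood F test, threshold of 0.05 on the Benjamini-Hochberg adjusted p). With replicate number as a block 0 of the 196 were called, against 0.267% of all genes. The smallest edgeR adjusted p among the 196 was 1 without pairs and 0.114 with them. At an unadjusted p under 0.05 in edgeR, the number without pairs was 0, against 0.743% of all genes. With pairs it was 17 (8.67%), against 8.79% of all genes. DESeq2 and limma-voom called 0 in either design.

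The differences were small and tilted slightly towards lower levels. The median log2 fold change was -0.02 without pairs and -0.02 with them, against 0.01 over all genes tested in each fit. It was negative for 122 of the 196 genes and positive for 74 without pairs. In all 3 pairs 35 genes (17.9%) were lower and 17 (8.67%) higher, against 14.2% and 16.4% of all genes. The tilt differed between pairs, with medians of -0.05, -0.01 and 0.00074 in pairs 1, 2 and 3. The median over the 196 ended at 0.0049 without EV replicate 2, at 0.03 without PTX4-OE replicate 1 and at 0.01 on log2(TPM + 1), so its sign rested on single libraries and on the scale.

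ZNF121 had the smallest p (ENSG00000197961.12, chr19:9560329-9584504, minus strand). It was at 140, 171 and 134 CPM (counts scaled to library size) in EV replicates 1, 2 and 3 and at 107, 146 and 125 CPM in PTX4-OE replicates 1, 2 and 3. The PTX4-OE library was the lower one in each pair, but the groups overlapped. With pairs its log2 fold change was -0.24 (SE 0.056, edgeR adjusted p = 0.114). Next came ZNF805, at -0.32 (SE 0.082, edgeR adjusted p = 0.169), and ZNF331, an imprinted gene, at -0.20 (SE 0.057, edgeR adjusted p = 0.235). When the pair of number 3 was left out, these 3 genes passed, with log2 fold changes of -0.32, -0.39 and -0.27 and edgeR adjusted p values of 0.000165, 0.0333 and 0.0333. ZNF121 and ZNF805 also passed with pairs when no filter on low counts was used (edgeR adjusted p = 0.00224 and 0.0324).

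The other genes of the 10 smallest p values were all negative in the fit with pairs and did not pass. ZNF224, a KRAB repressor, was at -0.17, ZNF850 at -0.15, ZNF763 at -0.50, ZNF431 at -0.12, ZNF600 at -0.17, ZNF114 at -0.23 and ZNF766 at -0.14. ZNF274 was at -0.06 (SE 0.09, edgeR adjusted p = 1) without pairs. With pairs, the interval of 2 SE on each side lay within 1.5-fold in both directions for 193 of the 196 genes and within 2-fold for all 196. Without pairs the intervals were wider (median SE 0.15, against 0.084 with pairs), and 194 genes lay within 2-fold.

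**Figure D3:**
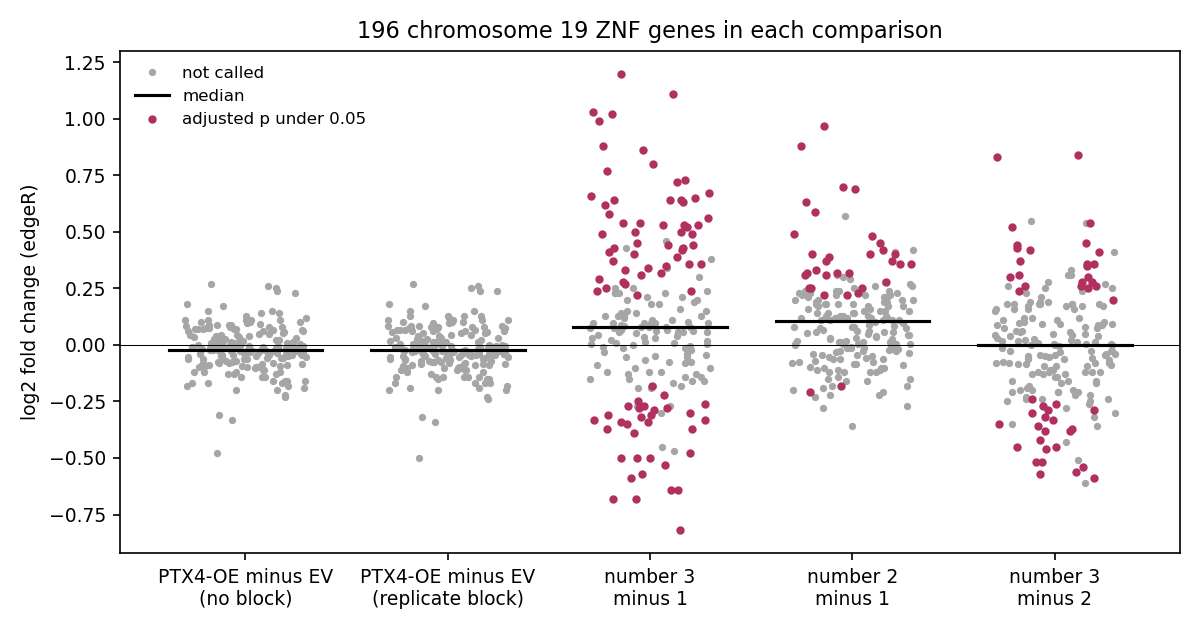
Log2 fold change (edgeR) of each of the 196 genes (points) in 5 comparisons, with horizontal lines at the median and coloured points for an adjusted p under 0.05. Neither fit of PTX4-OE minus EV has a called gene, while 88, 33 and 47 genes are called between numbers 3 and 1, 2 and 1, and 3 and 2.

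Genes of the silencing machinery and related chromatin factors were flat in the same comparison. Of 27 genes for TRIM28, SETDB1, HP1 proteins and other chromatin factors, 0 passed with or without pairs in edgeR. An unadjusted p under 0.05 was reached by 0 of the 27 without pairs, against 0.743% of all genes. With pairs 1 reached it (3.7%), against 8.79% of all genes. Their median log2 fold change without pairs was 0.02. TRIM28 was at 0.03 (SE 0.19) and SETDB1 at 0.02 (SE 0.10).

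Replicate numbers 3 and 1 were compared within constructs, with 2 libraries a number. Here the zinc finger genes moved in both directions, and more of them were higher in number 3 than lower. Of the 196 genes 88 passed (44.9%), against 54.6% of all 17625 genes tested (edgeR with construct as a term, the same threshold). They were higher in 55 cases (28.1%, against 25.8% of all genes) and lower in 33 (16.8%, against 28.8%). The median log2 fold change was 0.08, against 0.03 over all genes and -0.14 over the 721 other protein-coding genes of chromosome 19 that were tested, of which 143 were higher and 324 lower. ZNF genes of other chromosomes had 69 higher and 29 lower of 195, with a median of 0.10.

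All 88 had the same sign in both constructs, and for 87 of them the libraries of the numbers did not overlap; the exception, ZNF114, was named after its values were seen. Without overlap and regardless of the test stood 74.5% of the 196 genes and 76.4% of all genes. DESeq2 called 36 higher and 20 lower, and limma on log2(TPM + 1) called 53 higher and 14 lower. Here and below, counts from other tools or with libraries left out are given without the share of all genes. They describe only how the calls depend on the fit. The edgeR fit rests on 2 residual degrees of freedom per gene, with variances moderated across genes.

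The largest rise was that of ZNF763 (ENSG00000197054.12, chr19:11965037-11980617, plus strand). It was at 1.99, 4.33 and 3.75 CPM in EV replicates 1, 2 and 3 and at 1.31, 2.25 and 3.64 CPM in PTX4-OE replicates 1, 2 and 3. Both libraries of number 3 were above both of number 1, and EV replicate 2 was highest of all. The log2 fold change was 1.20 (SE 0.25, edgeR adjusted p = 0.000717).

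ZNF880 (ENSG00000221923.9, chr19:52369917-52385795, plus strand) was at 2.43, 2.45 and 4.75 CPM in EV and at 2.42, 3.40 and 5.74 CPM in PTX4-OE, in the same order. Its number 3 libraries stood above the other 4, with a log2 fold change of 1.11 (SE 0.19, edgeR adjusted p = 0.000168). ZNF382, a KRAB gene (ENSG00000161298.19, chr19:36604817-36634114, plus strand), was at 5.91, 5.18 and 9.45 CPM in EV and at 4.15, 6.32 and 11 CPM in PTX4-OE, and it rose by 1.03 (SE 0.17, edgeR adjusted p = 9.12e-05). For both genes the ratio of counts to TPM also moved between libraries, by 1.27-fold and 1.24-fold, against a median of 1.05-fold over the 196.

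ZNF814 (ENSG00000204514.11, chr19:57848731-57889074, minus strand) was at 9.11, 13.2 and 16.8 CPM in EV and at 7.26, 11.4 and 16.1 CPM in PTX4-OE. In both constructs number 2 lay between the others, and the log2 fold change of number 3 against 1 was 1.02 (SE 0.11, edgeR adjusted p = 1.16e-06). It overlaps ZNF587 on the other strand and has fractional counts in all 6 libraries, so its reads are not separated with certainty. ZNF461, the neighbour of ZNF382 on the other strand, was at 6.07, 10.1 and 11.6 CPM in EV and at 5.01, 10.1 and 10.3 CPM in PTX4-OE, a rise of 0.99 (SE 0.12, edgeR adjusted p = 7.34e-06). Of the 196 genes 4 moved by over 2-fold (ZNF763, ZNF880, ZNF382 and ZNF814), against 2261 of all 17625 genes tested. The limit of 1 TPM was set on the mean of these same libraries. In number 1, ZNF763 was at 1.04 TPM in EV and 0.65 TPM in PTX4-OE, and ZNF382 at 1.15 and 0.84 TPM. Genes this near the limit may have passed it through the numbers in which they were high. The rule for naming added ZNF580 (0.88), ZNF573 (0.86) and ZNF223 (0.80). Without PTX4-OE replicate 1, ZNF573 and ZNF223 did not pass (edgeR adjusted p = 0.283 and 0.0854), and ZNF573 was also lost without PTX4-OE replicate 3 (0.277).

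Falls were smaller. ZNF878 (ENSG00000257446.4, chr19:12043805-12052961, minus strand) was at 2.66, 2.01 and 1.36 CPM in EV replicates 1, 2 and 3 and at 2.75, 2.70 and 1.72 CPM in PTX4-OE replicates 1, 2 and 3. Its number 3 libraries were the lowest, with a log2 fold change of -0.82 (SE 0.25, edgeR adjusted p = 0.0113), but the call was lost when EV replicate 1, then EV replicate 3 or the third PTX4-OE library was left out (edgeR adjusted p = 0.0964, 0.0651 and 0.0572). ZNF576 was at 9.74, 8.65 and 5.43 CPM in EV and at 10.3, 8.41 and 7.07 CPM in PTX4-OE, a fall of 0.68 on the log2 scale (log2 fold change -0.68, SE 0.13, edgeR adjusted p = 0.000452). ZNF257 was at 16.0, 16.0 and 10.4 CPM in EV and at 17.4, 15.0 and 10.5 CPM in PTX4-OE, with a log2 fold change of -0.68 (SE 0.099). In both genes the number 3 libraries were below the other 4. ZNF492 and ZNF551 were at -0.64, ZNF530 at -0.59, ZNF724 at -0.57 and ZNF98 at -0.53, and each was lower in number 3 than in number 1 in both constructs.

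**Figure D4:**
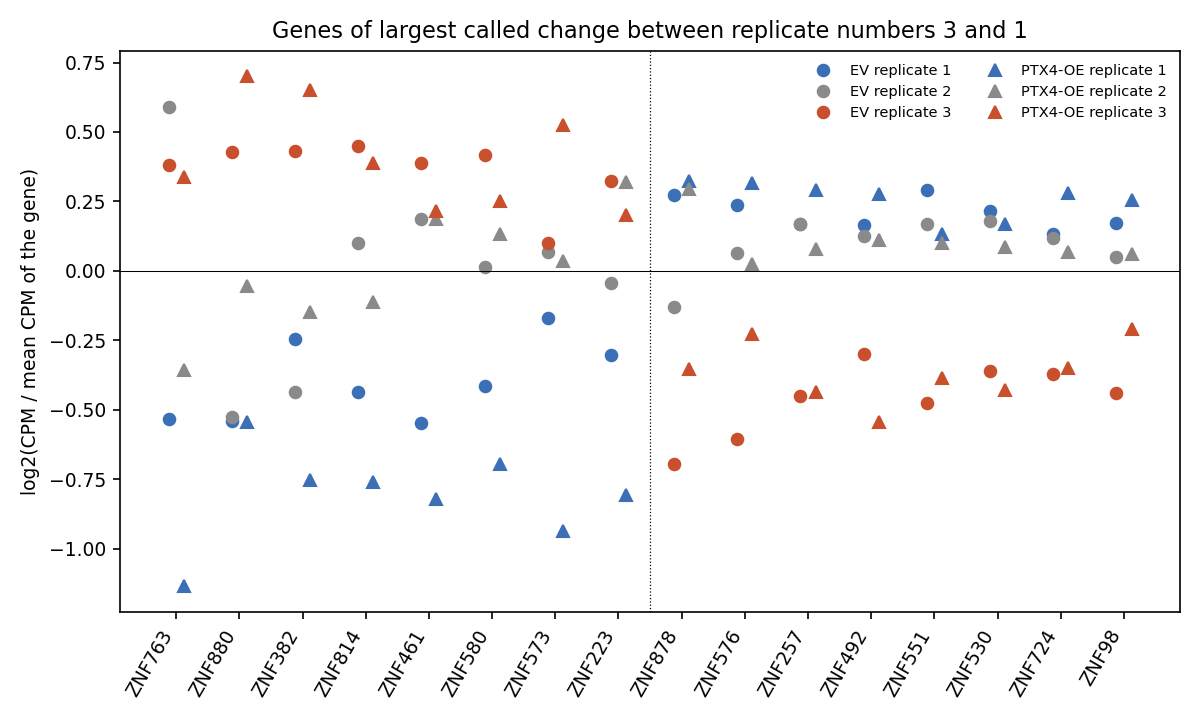
Log2 of CPM over the gene's mean CPM (vertical axis) in each library, for the 8 genes of largest called rise (left) and fall (right) between replicate numbers 3 and 1; circles are EV and triangles PTX4-OE, with colours for the number. Number 3 libraries lie above number 1 libraries for ZNF763 to ZNF223 and below them for ZNF878 to ZNF98.

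Numbers 2 and 1 differed less, and nearly all calls were rises. Of the 196 genes 33 passed (16.8%, against 21.3% of all genes), with 31 higher (15.8%, against 8.40%) and 2 lower (1.02%, against 12.9%) by edgeR. The median log2 fold change was 0.10 against -0.02 over all genes. ZNF genes of other chromosomes had 31 higher and 4 lower. This comparison shares its number 1 libraries with the one above. ZNF763 was at 0.97 (SE 0.25), ZNF461 at 0.88 (SE 0.13), ZNF682 at 0.70 (SE 0.13) and ZNF223 at 0.69 (SE 0.21). ZNF580 (0.63), ZNF814 (0.59), ZNF546 (0.49) and ZNF493 (0.48) completed the named rises. Number 2 was highest for ZNF682 in both constructs: it was at 10.3, 14 and 11.2 CPM in EV and at 7.43, 14.5 and 10.7 CPM in PTX4-OE. It was not alone in this. ZNF121, also called higher (edgeR adjusted p = 0.00256), had means of 124, 159 and 129 CPM in numbers 1, 2 and 3. The falls were ZNF480 at -0.21 (SE 0.072) and ZNF317 at -0.18 (SE 0.062).

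The number of calls rested on single libraries. Without PTX4-OE replicate 2 edgeR called 0 of the 196 (39 had an unadjusted p under 0.05), without PTX4-OE replicate 1 it called 7 and without EV replicate 2 it called 16. DESeq2 called 16 higher and 0 lower, and limma on log2(TPM + 1) called 1. All 10 named genes lost their call without PTX4-OE replicate 2.

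Between numbers 3 and 2, a comparison that shares libraries with both others, rises and falls balanced. By edgeR 47 genes passed (24.0%, against 32.8% of all genes), with 24 higher (12.2%, against 14.2%) and 23 lower (11.7%, against 18.6%), and the median log2 fold change was -0.0012 against 0.0093 over all genes. ZNF880 (0.84), ZNF382 (0.83), ZNF211 (0.54), ZNF581 (0.52), ZNF555 (0.45), ZNF579 (0.44), ZNF814 (0.43) and ZNF490 (0.42) led the rises. ZNF850, the gene with 25 linkers, led the falls: it was at 40.8, 43.3 and 27.6 CPM in EV and at 35.1, 38.2 and 26.5 CPM in PTX4-OE, with a log2 fold change of -0.59 (SE 0.073, edgeR adjusted p = 2.3e-05). ZNF257 (-0.57), ZNF551 (-0.56), ZNF492 (-0.54), ZNF530 (-0.52), ZNF256 (-0.52), ZNF724 (-0.46) and ZNF576 (-0.45) followed. The count was 14 without EV replicate 2, 22 without PTX4-OE replicate 2 and 26 without either library of number 3. DESeq2 called 7 higher and 10 lower, and limma on log2(TPM + 1) 17 higher and 6 lower. Without EV replicate 2 the calls of ZNF880 and ZNF382 were lost (edgeR adjusted p = 0.0872 and 0.0741).

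Over the 3 comparisons of numbers, 102 of the 196 genes (52.0%) passed at least once, against 57.9% of all genes, and 94 never did. All 3 were passed by 8 (4.08%), against 12.2% of all genes. Named after their values were seen, these were ZNF264, ZNF331, ZNF383, ZNF558, ZNF581, ZNF682, ZNF814 and ZNF83. ZNF264 was at 27.6, 33.6 and 40.9 CPM in EV and at 25.7, 32.8 and 40.7 CPM in PTX4-OE, so its constructs were nearly superposed while its numbers were apart. ZNF274, in contrast, was at 43.2, 42.5 and 45.4 CPM in EV and at 40.4, 41.3 and 43.9 CPM in PTX4-OE, and passed none (edgeR adjusted p = 0.237, 0.965 and 0.332).

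The genes lay in 10 clusters along chromosome 19, with gaps of up to 500 kb and at least 5 ZNF genes each, which held 186 of the 196. Cluster 4, from 19668796 to 24129968 on GRCh38, had 27 of its 37 ZNF genes among the 196, the lowest share of any cluster (73.0%). Between numbers 3 and 1, 7 of its genes were higher (25.9%) and 8 lower (29.6%), close to the 25.8% and 28.8% of all genes. Between numbers 3 and 2, 1 was higher (3.7%) and 10 lower (37.0%), against 14.2% and 18.6% of all genes, and the 10 were among the 23 such falls of the 196 genes. In the order on the chromosome ZNF431 (0.41), ZNF708 (0.53), ZNF493 (0.64) and ZNF429 (0.50) were higher in number 3 than in number 1, with ZNF738 (0.10, not called) among them. Farther on ZNF257 (-0.68), ZNF98 (-0.53), ZNF492 (-0.64), ZNF723 (-0.33) and ZNF724 (-0.57) were lower, with ZNF730 (-0.10, not called) among them. All 6 of that stretch passed as lower between numbers 3 and 2. The cluster's other calls between numbers 3 and 1 had both signs: ZNF682 (0.31), ZNF66 (0.43) and ZNF91 (0.29) were higher, and ZNF93 (-0.32), ZNF100 (-0.34) and ZNF675 (-0.25) lower. ZNF93 lies before the first stretch and ZNF91 after the second, and no test of position was run. The stretches were named after their values were seen, and since these are close relatives, reads could have been divided between them: ZNF98 and ZNF492 had fractional counts in all 6 libraries.

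Cluster 10, near the end of the long arm from 57191500 to 58481230, held 36 of 41 ZNF genes. Between numbers 3 and 1, 14 of them were higher (38.9%) and 4 lower (11.1%), with a median of 0.12, against 25.8% and 28.8% of all genes. Of the 33 genes of cluster 8, 9 were higher (27.3%) and 6 lower (18.2%), and of the 18 of cluster 6, 6 were higher (33.3%) and 3 lower (16.7%). Of the 20 genes of cluster 3, 5 were higher (25%) and 2 lower (10%), and of the 19 of cluster 7, 3 were higher and 3 lower (15.8% each). In PTX4-OE against EV with pairs, medians by cluster ran from -0.05 (cluster 10) to 0.05 (cluster 8), all with no called gene.

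**Figure D5:**
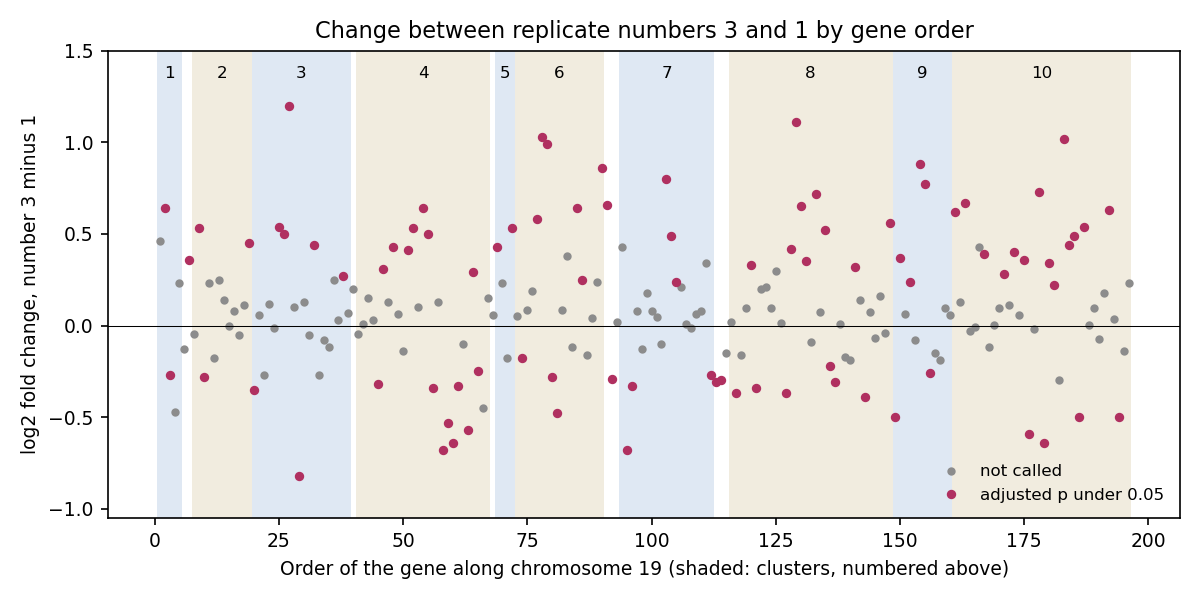
Log2 fold change of replicate number 3 minus 1 (edgeR, vertical axis) against the order of the 196 genes along chromosome 19, with shaded and numbered clusters and coloured points for an adjusted p under 0.05. Called genes of both signs occur in most clusters, and cluster 4 holds 7 called higher and 8 called lower.

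Genes of the silencing machinery and related chromatin factors were mostly lower in number 3 than in number 1. Of the 27, 3 (11.1%) were higher in number 3 than in number 1 and 16 (59.3%) lower by edgeR, against 25.8% and 28.8% of all genes. The median was -0.26 on the log2 scale. TRIM28, the scaffold that KRAB domains bind, was at 240, 217 and 183 TPM in EV and at 264, 219 and 184 TPM in PTX4-OE, with a log2 fold change of -0.54 (SE 0.064, edgeR adjusted p = 3.72e-06). The HP1 genes CBX1 (-0.71) and CBX3 (-0.53) were lower too, as were SUV39H1 (-0.86), a histone methyltransferase, and UHRF1 (-1.15), which recognises newly replicated methylated DNA. DNMT1, the maintenance DNA methyltransferase, was at -0.57 and HDAC1 at -0.60. The other genes that passed as lower were PPHLN1 (-0.44), DAXX (-0.42), EHMT2 (-0.41), SUV39H2 (-0.41), SMARCAD1 (-0.36), CHD4 (-0.30), HDAC2 (-0.26), KDM4A (-0.20) and EHMT1 (-0.15). Those higher were the chromatin remodeller ATRX (0.71), the SETDB1 partner ATF7IP (0.41) and DNMT3A (0.28). SETDB1 itself did not pass, at 0.13 (SE 0.057, edgeR adjusted p = 0.059). Nor did the HP1 gene CBX5, at -0.15 (SE 0.064, edgeR adjusted p = 0.0544). The remaining genes not called were TRIM24 (0.057), TRIM33 (0.055), CHD3 (0.043), MPHOSPH8 (0.015), MORC2 (-0.024) and TASOR (-0.032). Between numbers 2 and 1, 2 of the 27 were higher (7.41%) and 6 lower (22.2%), against 8.4% and 12.9% of all genes. Between numbers 3 and 2, 2 were higher (7.41%) and 11 lower (40.7%), against 14.2% and 18.6% of all genes.

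A short list of other C2H2 genes of chromosome 19, under other symbols and not a full set, had calls in both directions. Of 17 genes of the list found there, 10 were tested, and between numbers 3 and 1, 2 were higher (20%) and 3 lower (30%), against 25.8% and 28.8% of all genes. MZF1, a myeloid zinc finger gene, was at 0.84 (SE 0.14) and ZFP14 at 0.72 (SE 0.13), while ZBTB32 was at -0.90 (SE 0.26), ZBTB45 at -0.63 (SE 0.096) and ZSCAN5A at -0.45 (SE 0.14). In PTX4-OE against EV 0 of the 10 passed in edgeR. An unadjusted p under 0.05 was found for 0 without pairs, against 0.743% of all genes. With pairs 1 had it (10%), against 8.79% of all genes.

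RNAs that stay in the nucleus moved with the replicate number as well. MALAT1 was at 15.7, 24.4 and 42.5 TPM in EV replicates 1, 2 and 3 and at 9.07, 25.4 and 42.0 TPM in PTX4-OE replicates 1, 2 and 3. NEAT1 was at 64.8, 65.5 and 114 TPM in EV and at 48.0, 77.5 and 135 TPM in PTX4-OE. Mitochondrial genes took 4.75%, 5.91% and 5.51% of counts in EV and 2.79%, 5.39% and 4.97% in PTX4-OE. The part of these differences in the changes of the zinc finger genes was not tested.

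Annotation and counting set a limit on single genes. Of the 196, 70 (35.7%) overlap another gene at 1 TPM or more, 31 on the same strand and 44 on the other, and the sources used here do not say whether counting used strand. Fractional counts occurred for 54 genes (27.6%, against 28.8% of protein-coding genes at 1 TPM or more).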

How the data were processed

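RNA was sequenced from 6 libraries of THP-1 cells, 3 EV and 3 PTX4-OE. Per the submitters' processing notes, the tools were STAR, featureCounts and FastQC 0.11.5, and the build was GRCh38. No source used here gives settings, strand or annotation release. Expected counts per gene were deposited without normalization, and 7.94% of them are not whole. The authors also deposited TPM, scaled for length and depth, and deposited FPKM, scaled likewise. Gene types and positions came from GENCODE 44, and 35 pseudoautosomal pairs were summed.

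Expected counts were rounded, filtered with filterByExpr, scaled by TMM and tested with edgeR 4.0.16 (quasi-likelihood test, Benjamini-Hochberg over 17625 genes, threshold 0.05), after tests on simulated data. Standard errors are the fold change divided by the root of F. CPM carry TMM factors. Same-numbered libraries deviated together for numbers 1 and 3 (correlations of 0.755 and 0.802 of their deviations from group means). For number 2 the correlation was 0.216, close to the highest of those between different numbers (-0.747 to 0.209). All 3 numbers were taken to pair the libraries, which for number 2 the correlation does not bear out. No 2 libraries agreed within sampling noise. DESeq2 1.42.0, limma 3.58.1 with voom or log2(TPM + 1), other filters, limits and libraries left out were the alternatives.

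The genes and lists were chosen with earlier results of these data known. Named by rule were the 10 highest levels, the 5 genes on either side of 1 TPM, the 10 smallest p values of the construct with pairs, and per number comparison up to 8 called genes in each direction. Protein features that had been planned were not analysed here. The linker motif took their place and was chosen after the data were seen, as were the promoter motifs.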

Additional observations from a re-analysis of the deposited data

How the results depend on the processing

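The comparisons of replicate numbers rest on 2 libraries each and 2 residual degrees of freedom, and reads of overlapping or closely related genes are not separated with certainty. Without pairs, 0 of the 196 genes were called for the construct under every alternative, and the replicate block gave 0 as well, except that 2 were called lower with the block and no filter on low counts; leaving out pairs gave 0 to 3. The median for the construct was 0.012 on log2(TPM + 1) with or without the block, and ran from -0.048 to 0.026 when libraries were left out. Between numbers 3 and 1 DESeq2 called 56 in place of 88, libraries left out gave 63 to 85, and the median was 0.13 on log2(TPM + 1). Between numbers 2 and 1 the 33 calls became 16 with DESeq2 and 1 on log2(TPM + 1), and 0 to 40 with libraries left out; the median was 0.12 without a filter, 0.053 on log2(TPM + 1), and 0.097 to 0.15 with libraries left out. Between numbers 3 and 2 the 47 calls became 17 with DESeq2, 23 on log2(TPM + 1), 31 without a construct term and 14 to 61 with libraries left out; the median was 0.065 on log2(TPM + 1), -0.025 for genes at 2 TPM or more and -0.043 to 0.0098 with libraries left out. The median level was 4.19 in FPKM. The cause of these shifts was not tested. Of the values for named genes, 617 kept their direction and side of the threshold, 82 fell short of it, 5 newly passed it and none changed sign.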
